A study of Mus musculus with 8 samples.

Results

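The comparison described here sets cells in which both Polycomb repressive complexes were lowered against control cells. It rests on 4 of the 8 labelled RNA libraries, 2 with a Ring1a shRNA and the inhibitor DS3201 (the combined group) and 2 with a control shRNA and no inhibitor (the control group). They were chosen by treatment label, with no use of measured values. All cells were immortalized mouse embryonic fibroblasts (iMEFs) that the labels describe as knocked out for the genes Ehmt1, Ehmt2, Setdb1, Suv39h1 and Suv39h2, which encode H3K9 methyltransferases, and for Ring1b (gene symbol Rnf2), so the controls carry these deletions too. The shRNAs came in lentiviral vectors with blasticidin selection, and DS3201, an inhibitor of EZH1 and EZH2, was given at 1 uM for 7 days. The remaining 4 libraries, 2 with the Ring1a shRNA alone (the knockdown group) and 2 with DS3201 and the control shRNA (the inhibitor group), enter the model and are given beside the combined values. Whether the line is 1 clone is not given in the sources used here. Each group has 1 library in a set whose column names start with 20 and 1 in a set starting with 28, called set 20 and set 28 here, and values below are in that order. The labels also give each group a batch 1 and a batch 2, which go with the replicate number, and do not say which batch is set 20. Nothing says that the libraries came from separate cultures, so p-values reflect the variation among these libraries alone. What is left of that variation once the set is fitted may be technical. Between the sets some genes differed widely and others did not. Scg2 counts were 1 and 2213 for control, 5 and 1622 for knockdown and 151 and 762 for combined libraries. Vim had 44865 and 42899 control counts. The source of the set differences was not tested.

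Polycomb repressive complex 1 (PRC1) places ubiquitin on histone H2A through RING1 or RNF2, and Polycomb repressive complex 2 (PRC2) methylates histone H3 at lysine 27 through EZH1 or EZH2. In fibroblasts the pair is best known for keeping developmental genes of other lineages silent, mostly at promoters rich in CG dinucleotides. H3K9 methylation is a separate silencing mark, placed mainly on repeats and gene-poor heterochromatin, and in these cells its enzymes were removed beforehand.

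The starting regions of genes that moved differed in sequence, and 4 that rose, chosen after their values were seen, are shown because they span the range. Each is the stretch of 250 bases before the RefSeq transcript start (build GRCm38.p6), printed 5′ to 3′ on the gene's strand, with CG dinucleotides in capitals. Six2, a homeobox factor of kidney progenitors, lies on the minus strand (chr17:85688255-85688504) with 26 CG, and Kctd12, a protein that binds GABA-B receptors, on the minus strand (chr14:102982638-102982887) with 36. Zscan4b, a zinc finger gene of the 2-cell embryo, lies on the minus strand (chr7:10905051-10905300) with 1 CG, and Usp17ld, a deubiquitinase gene expressed at the same stage, on the minus strand (chr7:103252506-103252755) with 0.
Six2: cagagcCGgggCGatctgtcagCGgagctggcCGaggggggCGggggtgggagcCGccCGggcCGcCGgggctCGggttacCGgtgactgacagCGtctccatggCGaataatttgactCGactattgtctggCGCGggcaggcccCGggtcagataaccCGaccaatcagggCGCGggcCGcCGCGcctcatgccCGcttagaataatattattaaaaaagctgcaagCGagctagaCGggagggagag
Kctd12: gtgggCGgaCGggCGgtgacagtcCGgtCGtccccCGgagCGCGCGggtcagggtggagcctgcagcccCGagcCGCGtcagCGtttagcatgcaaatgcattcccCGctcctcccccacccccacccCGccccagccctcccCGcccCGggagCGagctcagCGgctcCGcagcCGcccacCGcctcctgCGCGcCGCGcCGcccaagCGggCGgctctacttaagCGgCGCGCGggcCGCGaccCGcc
Zscan4b: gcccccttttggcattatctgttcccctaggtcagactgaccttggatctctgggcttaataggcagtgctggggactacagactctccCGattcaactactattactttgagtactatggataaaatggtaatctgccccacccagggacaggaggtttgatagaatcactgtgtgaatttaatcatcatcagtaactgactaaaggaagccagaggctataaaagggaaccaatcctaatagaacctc
Usp17ld: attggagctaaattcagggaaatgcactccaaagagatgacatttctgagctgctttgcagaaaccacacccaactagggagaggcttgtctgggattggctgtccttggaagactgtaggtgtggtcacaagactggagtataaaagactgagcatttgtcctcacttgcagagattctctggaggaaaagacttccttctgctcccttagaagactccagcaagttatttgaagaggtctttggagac

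Over the 11278 of 14393 tested genes with a matched promoter, the median was 15 CG per 250 bases, against 12 for the 1043 matched genes that rose and 11 for the 250 that fell. The 15 matched developmental transcription factors that rose had a median of 17 CG, beside 15.5 for the 32 that were not called. For Wnt, BMP and TGF-beta genes the medians were 28.5 (18 that rose) and 18 (23 not called), and for genes of the 2-cell embryo 2 (15 that rose) and 1 (3 not called). A promoter with 10 or more CG was present in 56% of the genes that rose and in 70.7% of all matched genes. These shares follow the level in the control: among genes under 1 CPM there, 47.7% of those that rose and 42.7% of all had 10 or more CG. At 1 CPM or more the shares were 77.1% and 75.5%. CPM is a count scaled by library size and not by gene length. No test was made of these shares.

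The library totals ran from 12738585 to 23688253 counts, of which repeats took 8.59 to 14.6%, and 3 counts in 1 library correspond to 0.127 to 0.236 CPM. Folds over a control at 0 use another floor, 3 counts over both control libraries together. Libraries parted first by DS3201 (54.4% of the variance) and next by set (29.3%). On the next component the set 28 inhibitor library lay far off, at 52.8 where the others lay from -30.4 to 26.7, and it is part of the model, with a share in the filter, the scaling, the set term and the spread. The fibroblast markers Col1a1, Col1a2, Col3a1, Vim and Fn1 had 23826 counts or more in each control and 16931 or more in each combined library. Of the 14 fibroblast markers, Thy1 (9 and 2 counts in the control, 4 and 0 in the combined group), Lum (0 and 0, then 6 and 1) and Fap (8 and 6, then 0 and 0) were too low to test.

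Ring1, the gene targeted by the shRNA, was low in both combined libraries. Control libraries held 20.2 and 9.73 CPM and combined libraries 3.51 and 2.04 CPM, with no overlap, a log2 fold change of -2.39 ± 0.30 (SE, n = 2, adjusted p = 0.00467 in edgeR's quasi-likelihood test). The shRNA alone gave 4.51 and 1.41 CPM, DS3201 alone 20.4 and 7.503 CPM. Without the combined library of set 20, or without the set in the model, the Ring1 call was lost. RNA of the 6 deleted genes and of Ezh1 and Ezh2 was present, and none of these 8 passed the test (Rnf2 0.08 ± 0.23, Setdb1 -0.23 ± 0.25, Suv39h1 -0.21 ± 0.17, Suv39h2 0.02 ± 0.24, Ehmt1 -0.18 ± 0.14, Ehmt2 -0.14 ± 0.27, Ezh1 0.19 ± 0.18 and Ezh2 0.44 ± 0.19 log2). RNA levels do not show enzyme activity or which exons were removed.

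In the combined group 1377 of 14393 tested genes were higher than in the control (9.57%) and 315 lower (2.19%), at an adjusted p under 0.05 with the set as a block. The genes that rose were mostly off or nearly off in the control. In bulk RNA a change in the number of cells and a change in RNA per cell cannot be told apart. Of the 1377, 997 were under 1 CPM there (72.4%, against 2266 of all 14393 genes, 15.74%), 357 of them with 0 counts in both libraries. Their median level went from 0.138 CPM in the control to 4.602 CPM, with 3.35 CPM in the inhibitor group and 0.269 CPM in the knockdown group. The genes that fell were expressed ones: their median went from 56.8 to 27.2 CPM, with 37.9 CPM in the inhibitor group and 48.0 CPM in the knockdown group. The shares by control level ran in opposite directions. Under 1 CPM 44% of 2266 genes rose and 1 fell, while at 100 CPM or more 7 of 2207 rose and 95 fell (4.30%). Genes at 0 counts in the control passed the filter on low counts only through another group, and other genes under 1 CPM there may have done so too. Genes that low could hardly be called lower. The shares under 1 CPM are thus in part set by the filter and are not a trait of the response. The 2 groups did not overlap in 1338 of the 1377 and 266 of the 315 genes, as in 6627 of all 14393.

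The counts depended on the libraries and on the model. Leaving out the control library of set 20 or set 28, they were 340 higher and 22 lower or 684 and 63, and without the combined library of set 20 or set 28 they were 234 and 12 or 279 and 22. Without the inhibitor library of set 20 or set 28, 1549 or 1708 were lower. Without the set as a block 217 were higher and 5 lower. All 1692 called genes kept their sign in each of these fits, except that 1691 did without the control library of set 20. Of the 172 called genes and repeats chosen for naming, the calls kept numbered 72 or 100 without the control library of set 20 or set 28, 60 or 72 without the combined library of set 20 or set 28, and 41 without the set in the model.

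**Figure D1:**
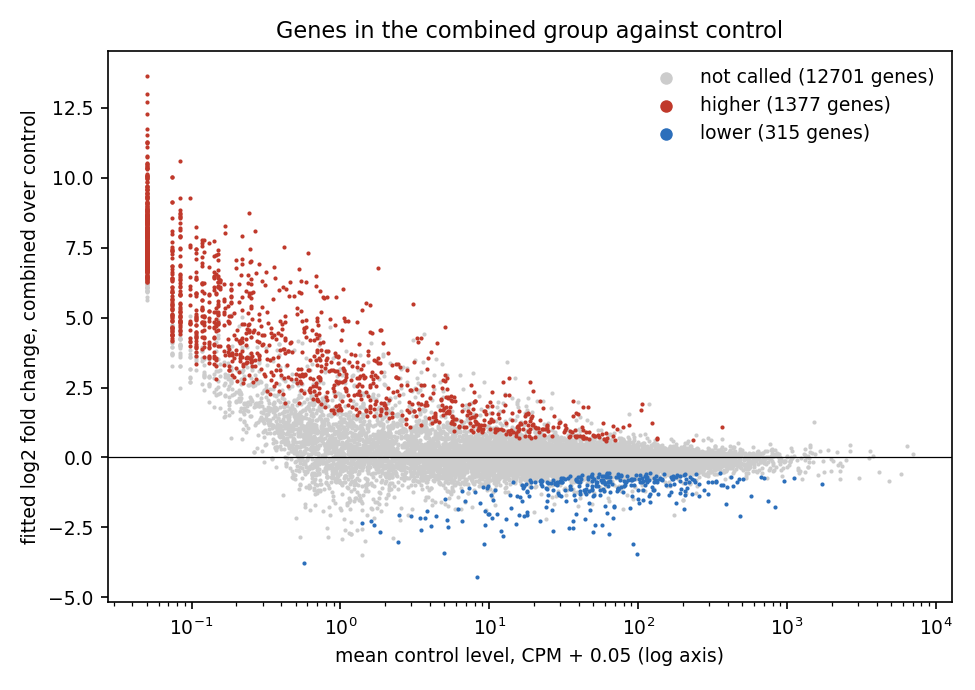
Log2 fold change of combined over control (vertical axis) against the mean control level in CPM (horizontal axis, log scale) for the 14393 tested genes, with genes that rose in red, genes that fell in blue and the rest in grey. The 1377 genes that rose lie mostly at the low-level end. Of the 315 that fell, 186 lie at 10 to 100 CPM and 95 at 100 CPM or more.

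Ranked by fitted log2 fold change, the 8 highest named genes had no control counts, which in itself raises the fitted value. Some genes with a few control counts, such as Robo2 and Sod3 below, had count ratios above several of the bounds given here. Kctd12 (chr14, 102976581 to 102982637) went from 0 and 0 to 41.6 and 88.3 CPM, at least 776-fold higher over 3 control counts (adjusted p = 0.000425). The inhibitor libraries had 28.9 and 51.4 CPM and the knockdown libraries 0 and 0.0673 CPM. Nts, the precursor of the peptide neurotensin, went from 0 and 0 to 148 and 1.92 CPM, at least 906-fold higher over both sets together (adjusted p = 0.000425). Its level thus differed widely between the sets, as in the inhibitor group (138 and 0.971 CPM). Robo1, a receptor for Slit guidance cues, went from 0 and 0 to 24.8 and 82.2 CPM (adjusted p = 0.000425, at least 638-fold higher), and Cyfip2, of the WAVE actin-regulating complex, from 0 and 0 to 41.4 and 30.4 CPM (adjusted p = 0.000425, at least 431-fold higher). Starting at 0 counts, Tenm3, a teneurin adhesion protein, rose at least 233-fold, Prkg1, the cGMP-dependent kinase, at least 232-fold, Lonrf3 at least 209.8-fold and Trp53i11 at least 189-fold. All 8 genes named here were also higher with DS3201 alone, at a lower mean level in 6 of them and a higher one in Robo1 and Prkg1. None of the 8 passed between the combined and inhibitor groups.

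Measured by CPM gained, most of the leading genes were already expressed in the control. Brd2, a bromodomain protein, rose from 341 and 391 to 569 and 1071 CPM (1.09 ± 0.26 log2, adjusted p = 0.0407). Gpc1, a cell-surface proteoglycan, rose from 85.9 and 125 to 293 and 387 CPM, with inhibitor levels of 206 and 111 CPM and knockdown levels of 184 and 209 CPM (1.70 ± 0.34, adjusted p = 0.0225). Ccnd2, a D-type cyclin, rose from 0.380 and 3.09 to 81.4 and 227 CPM (6.79 ± 0.53, adjusted p = 0.000899), and the knockdown libraries held 1.91 and 18.2 CPM. Ctgf, a matricellular growth factor, rose by 1.90 ± 0.38, Glul, glutamine synthetase, by 2.01 ± 0.17, Ildr2 by 1.24 ± 0.23, Plin2, a lipid droplet coat protein, by 0.63 ± 0.16 and C3, complement component 3, by 4.67 ± 0.30 log2. In all 8 genes both combined libraries lay above both controls. The calls of Brd2, Ctgf, Gpc1, Ildr2 and Plin2 were lost without the control library of set 20 and without the combined library of set 20, those of Brd2, Ctgf, Ildr2 and Plin2 also without the control library of set 28, and those of Brd2, Gpc1 and Plin2 without the combined library of set 28. Plin2 was also lost without either knockdown library.

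Genes of the 2-cell embryo were the list with the largest share called: 26 of 32 tested members rose and 0 fell, where 9.57% of all genes rose. Of the 32, 26 were under 1 CPM in the control, a level at which 44% of all tested genes rose. A further 10 members were too low to test. Members that low in the control could pass the filter through groups where they are high, so the filter sets part of this share. These genes are switched on in the cleavage-stage embryo and in rare embryonic stem cells. BB287469, an Eif1a-like gene (chr12, 87816577 to 87820676), went from 0.332 and 0.402 to 69.6 and 67.4 CPM (7.53 ± 0.24, adjusted p = 0.000124). Zscan4b, whose promoter with 1 CG is shown above, went from 0.332 and 0.134 to 38.5 and 22.3 CPM (6.92 ± 0.39, adjusted p = 0.000425). Usp17ld, with 0 CG, went from 1 and 1 counts to 18.3 and 19.9 CPM, a count ratio of 343 (exact 95% interval 94.6 to 2840.) Usp17le rose from 1.66 and 0.805 to 36.8 and 33.6 CPM (4.86 ± 0.29). The single treatments are given beside them: BB287469 had inhibitor levels of 61.0 and 66.6 CPM and knockdown levels of 0.365 and 0.336 CPM. The list's median log2 change was 6.20 (5.44 with the 6 members at 0 counts set to their bound), beside 6.03 for the inhibitor and 0.07 for the knockdown, and 0.005 over all genes in the combined group. Dux, the transcription factor that turns on this program and named after its values were seen, also rose, from 0.0475 and 0.134 to 2.57 and 2.11 CPM (4.68 ± 1.03, adjusted p = 0.0315). Each control library held under 3 Dux counts, so the size of this fitted rise is uncertain. With the control library of set 20 or set 28 left out, the number of list members that rose was 20 or 21. It was 19 without either combined library and 14 without the set in the model. Members of the Zscan4, Usp17l and Pramef families are near-identical copies, and the rule for reads that match several copies is not given in the sources used here, so single members are uncertain.

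Cancer-testis genes on the X chromosome rose in 7 of 12 tested members, Mageb16, Slxl1, Magea8, Magea5, Mageb4, Magea3 and Magea2. Over all genes 9.57% rose, and 44% of those under 1 CPM in the control. Of the 12, 8 were under 1 CPM there, and 21 further members were too low to test. Slxl1 went from 0 and 0.402 to 8.72 and 14.9 CPM (6.21 ± 0.73, adjusted p = 0.00411), beside 8.04 and 29.6 CPM with DS3201 alone. Mageb16 had 2 control counts and then 9.22 and 0.511 CPM, a count ratio of 88.2 (exact 95% interval 24.0 to 735.) Of 18 tested germline and meiosis genes 5 rose, among them Pgk2, the testis form of phosphoglycerate kinase, from 0.475 and 2.21 to 5.71 and 8.17 CPM (2.57 ± 0.47, adjusted p = 0.0171). The remaining 13 tested germline genes were not called, and the list's median was 0.75. Of the 18, 10 were under 1 CPM in the control, and 37 further members were too low to test. When the control library of set 20 or set 28 was dropped, the count of X-linked genes was 1 or 3, without either combined library 2 and without the set in the model 0. The count of germline genes was 0 or 1, 0 and 0 in these fits.

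**Figure D2:**
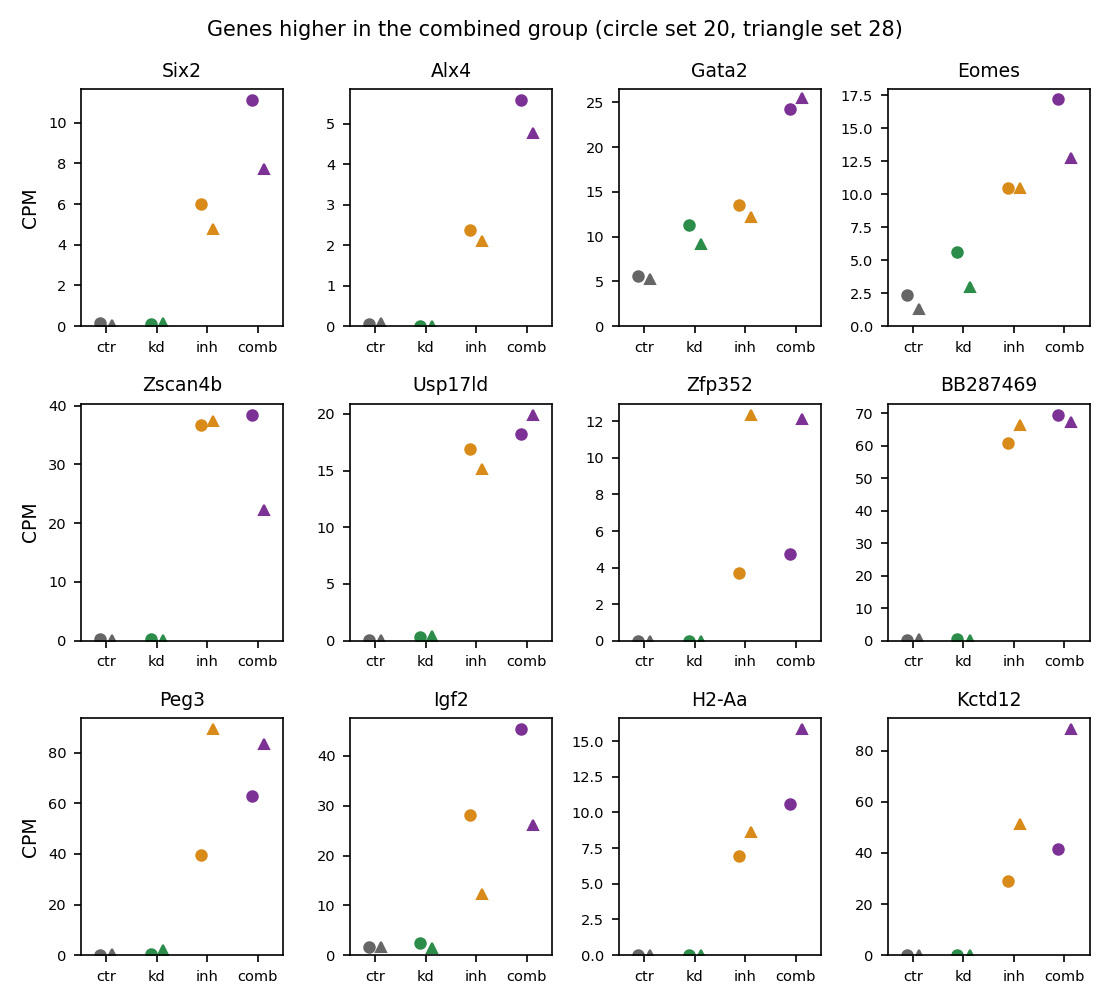
Level in CPM (vertical axis, linear) of 12 genes that rose, by library: control (ctr), knockdown (kd), inhibitor (inh) and combined (comb), with a circle for set 20 and a triangle for set 28. In BB287469, for example, the combined libraries at 69.6 and 67.4 CPM and the inhibitor libraries at 61.0 and 66.6 CPM stand above the control and knockdown libraries.

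Developmental transcription factors, the classic Polycomb targets, rose in 23 of 74 tested members and fell in 0. Over all genes 9.57% rose, and 71 further members of the list were too low to test. Six2, with 26 CG in its promoter, went from 0.142 and 0.0671 to 11.1 and 7.72 CPM (6.35 ± 0.44, adjusted p = 0.000752). Gata2, a factor of blood and endothelial development, went from 5.65 and 5.30 to 24.3 and 25.5 CPM (2.19 ± 0.21, adjusted p = 0.00215), while the inhibitor group held 13.5 and 12.2 and the knockdown group 11.3 and 9.15 CPM. Alx4, a homeobox factor of limb and skull, went from 1 and 1 counts to 5.59 and 4.79 CPM, a count ratio of 93.3 (exact 95% interval 25.4 to 777.) Eomes, a T-box factor of early lineages, went from 2.38 and 1.27 to 17.2 and 12.8 CPM (3.05 ± 0.33, adjusted p = 0.00298). In all 4 genes the combined level was above the inhibitor level in both sets. They were chosen by their p against the control, which favours high combined levels, and 0 genes passed between the combined and inhibitor groups. The list's median was 0.89, beside 0.45 for the inhibitor and 0.11 for the knockdown. Of its 74 members 23 were under 1 CPM in the control, a level at which 44% of all tested genes rose. Others that rose include En2, Irx3, Sox9, Pax2, Vax2, Foxq1, Foxd1, Pax6, Wt1, Dlx4, Zic1, Prdm8, Nkx6-1, Lhx4, Lhx2, Sox21, Sox2 and Foxf2, which pattern the brain, eye, kidney and other organs.

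Of 39 Hox genes, which specify position along the body axis, 27 were tested and 5 rose, among them Hoxd11, Hoxc9, Hoxa5 and Hoxb9. Hoxd11 went from 0 and 0 to 2.95 and 1.66 CPM (adjusted p = 0.0106, at least 27.7-fold higher), with 1.08 and 0.530 CPM in the inhibitor group. The share of 5 in 27 stands beside 9.57% of all genes, and the median over the 27 was 0.54. Among 17 mesenchymal factors Ebf2, of brown fat precursors, rose at least 34.1-fold from 0 counts, Osr2 rose by 1.70 ± 0.41 and Ebf1 fell by 1.03 ± 0.22 log2. Of these 3 calls 1 was kept without the control library of set 20 or set 28 and 0 without either combined library, and Osr2 was lost without either knockdown library too. Without the control library of set 20 or set 28 the counts were 7 or 14 developmental factors and 0 or 3 Hox genes, without the combined library of set 20 or set 28 they were 5 or 6 and 0 or 0, and without the set in the model 5 and 0.

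Genes of Wnt, BMP and TGF-beta signalling rose in 24 of 61 tested members and fell in 1. Over all genes 9.57% rose and 2.19% fell. Of the 61, 17 were under 1 CPM in the control, where 44% of all tested genes rose. A further 12 members were too low to test. Among ligands, Bmp5 went from 0 and 0 to 2.82 and 2.43 CPM (adjusted p = 0.00914, at least 31.5-fold higher), and Wnt11 from 0.190 and 0.402 to 4.46 and 7.02 CPM (4.30 ± 0.67, adjusted p = 0.0102). Wnt11 stood at 2.72 and 0.971 CPM with DS3201 alone and at 1.95 and 2.09 CPM with the shRNA alone. Wnt5b, Wnt10a, Wnt9a, Wnt2b, Wnt6, Wnt4, Wnt7a, Bmp7 and Inhbb were the other ligands that rose. Receptors that rose were Fzd9, Fzd3 and Tgfbr1, and secreted inhibitors were Nog, Chrd, Chrdl1, Wif1 and Frzb. Axin2, a feedback target of Wnt signalling (chr11, 108917828 to 108950783), went from 0.285 and 0.134 to 22.3 and 5.11 CPM (5.93 ± 0.58, adjusted p = 0.00231). The single treatments gave lower Axin2 levels, 10.4 and 1.501 CPM with DS3201 and 2.07 and 1.01 CPM with the shRNA. Tcf7, a nuclear partner of beta-catenin, went from 9.21 and 7.04 to 32.0 and 16.9 CPM (1.54 ± 0.22, adjusted p = 0.00758), and its knockdown libraries were as high, at 26.8 and 18.4 CPM. Lef1, Id1 and Id2 rose as well, and Dkk3, a Dickkopf family member, fell by 1.21 ± 0.27 log2. The list's median was 0.90, beside 0.68 for the inhibitor and 0.21 for the knockdown. Leaving out the control library of set 20 or set 28, the count of 24 was 2 or 11, without either combined library 2, and without the set in the model 1.

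Axon guidance and ephrin genes rose in 17 of 54 tested members and fell in 2. Over all genes 9.57% rose and 2.19% fell. Of the 54, 14 were under 1 CPM in the control, and 3 further members were too low to test. Robo2, the neighbour of Robo1 on chromosome 16, went from 1 control count to 12.3 and 32.2 CPM, a count ratio of 797 (exact 95% interval 142.5 to 31510.) Slit3, a ligand of Robo receptors, went from 1.95 and 0.537 to 16.9 and 8.11 CPM (3.41 ± 0.33, adjusted p = 0.00215). Sema6a rose at least 91.0-fold from 0 counts. Sema3d, a secreted semaphorin, fell within each set, from 102 and 22.3 to 27.04 and 5.17 CPM (-1.996 ± 0.17, adjusted p = 0.00112), though the set 20 combined library lay above the set 28 control. Sema3a fell from 97.4 and 259 to 25.7 and 106 CPM (-1.62 ± 0.30, adjusted p = 0.0188), also with overlap between the sets. Ion channel genes rose in 11 of 38 members, among them the calcium channel genes Cacna1c (from 0.902 and 0.335 to 11.04 and 12.6 CPM) and Cacna1g (from 3 control counts to 17.8 and 9.001 CPM, count ratio 161, exact 95% interval 54.8 to 785). The protocadherin beta cluster, of neuronal adhesion proteins, rose in 6 of 13 members, with Pcdhb17 at 1.32 and 2.94 CPM after 1 and 1 control counts (ratio 38.1, interval 10.2 to 321). Of the 38 ion channel genes 16 were under 1 CPM in the control, and of the 13 protocadherins 11. At that level 44% of all tested genes rose. A further 23 ion channel genes and 9 protocadherins were too low to test. With the control library of set 20 or set 28 left out, the count of guidance genes that rose was 5 or 10, and without the combined library of set 20 or set 28 it was 4 or 5. The ion channel counts were 2 or 5 and 2 or 2, and the protocadherin counts 2 or 2 and 1 or 0. Without the set in the model the 3 counts were 4, 1 and 1.

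Imprinted genes, expressed from 1 parental allele, rose in 9 of 39 tested members: Peg3, Igf2, Mest, Phlda2, H19, Dio3, Usp29, Zim1 and Grb10. Over all genes 9.57% rose. Of the 39, 11 were under 1 CPM in the control, a level at which 44% of all tested genes rose. A further 13 members were too low to test. Peg3, a paternally expressed zinc finger gene (chr7, 6703892 to 6730462), went from 0.0475 and 0.335 to 62.8 and 83.6 CPM (8.76 ± 0.58, adjusted p = 0.000679). Its neighbours Zim1, Peg3os and Usp29 rose with it, and whether the counts separate strands is not given, so Peg3 and its antisense partner Peg3os cannot be told apart. Igf2, a fetal growth factor, went from 1.57 and 1.61 to 45.4 and 26.1 CPM (4.45 ± 0.33, adjusted p = 0.000886), above the 28.1 and 12.3 CPM with DS3201 alone. Phlda2, a placental growth inhibitor, went from 0.522 and 0.805 to 3.51 and 6.45 CPM (2.87 ± 0.41, adjusted p = 0.00775). The shRNA alone gave Phlda2 levels of 1.79 and 4.10 CPM and the inhibitor alone 1.47 and 1.68 CPM. Of 9 tested genes whose imprint rests on H3K27me3, Sfmbt2 rose by 1.18 ± 0.22 and Smoc1 by 2.80 ± 0.68 log2, both lost without any 1 of the control and combined libraries. When the control library of set 20 or set 28 was dropped, the count of 9 was 4 or 5, without either combined library 3, and without the set in the model 3.

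Genes of immune and blood cells moved in both directions. MHC class II genes, which present antigens and are regular marks of antigen-presenting cells, rose from near 0: H2-Aa (chr17, 34282744 to 34287823) went from 0 and 0 to 10.6 and 15.8 CPM (adjusted p = 0.00211, at least 158-fold higher), H2-Ab1 from 0 and 0 to 2.38 and 1.66 CPM (at least 24.3-fold) and H2-Eb1 from 2 control counts to 2.82 and 2.11 CPM. With H2-DMb1 and the class I genes H2-Q6 and H2-Q7 they made 6 of 19 MHC genes that rose. Over all genes 9.57% rose and 2.19% fell. Of the 19, 6 were under 1 CPM in the control, a level at which 44% of all tested genes rose. A further 5 members were too low to test. Il33, an alarmin cytokine, went from 1 and 1 counts to 11.6 and 5.30 CPM (ratio 152.5, interval 41.8 to 1266). Tgfa, a ligand of the EGF receptor, went from 2 control counts to 11.7 and 9.90 CPM (ratio 194.6, interval 53.5 to 1613). Over 40 secreted cytokines 9 rose and 3 fell, while 11 of the 40 were under 1 CPM in the control and 8 further members were too low to test. Cxcl12, a chemokine of stromal cells, fell within each set, from 93.0 and 681 to 33.1 and 194 CPM (-1.65 ± 0.16, adjusted p = 0.00219), and Ccl9 fell from 36.9 and 16.5 to 9.60 and 1.28 CPM (-2.64 ± 0.42, adjusted p = 0.0109). Of 10 blood and macrophage markers tested, Lyz2, H2-Aa and H2-Ab1 rose and Itgam fell. The summed level of all 10, these 4 included, was 41.7 and 10.8 CPM for the control and 62.3 and 34.5 CPM for the combined libraries. Over the 6 that were not called it was 33.2 and 8.52 against 39.3 and 10.5 CPM. Of 9 further markers too low to test, Tyrobp, Cd3e and Hbb-bs were at 0 in all 4 of these libraries. Counts were higher in the combined group for Lyz1 (0 and 0, then 7 and 5), Hba-a1 (0 and 0, then 6 and 3), Aif1 (0 and 0, then 3 and 1) and Spi1 (2 and 5, then 3 and 15). They were not higher in both sets for Cd79a (1 and 2, then 4 and 0) and Fcer1g (1 and 1, then 1 and 0). The part of such cells in the MHC values was not tested. Without the control library of set 20 or set 28 the count of MHC genes was 1 or 5, without either combined library 1 and without the set in the model 1. The count of cytokines that rose was 3 or 4, 3 and 3 in these fits.

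Interferon-stimulated genes were the list with most members lower: 14 of 56 fell and 1 rose, where 2.19% of all genes fell. These genes respond to type I interferon through STAT2 and IRF9 and restrict viruses. Ifit3, which binds viral RNA together with Ifit1 (chr19, 34583119 to 34588982), fell from 148 and 38.2 to 22.02 and 3.19 CPM (-3.08 ± 0.38, adjusted p = 0.00455). It stood at 68.3 and 9.80 CPM with DS3201 alone and at 110 and 43.1 CPM with the shRNA alone. Both combined libraries were below every other library of their set, but the difference from the inhibitor group did not pass. Samd9l, a growth-restricting antiviral protein (chr6, 3372257 to 3399571), fell from 251 and 153 to 80.9 and 35.7 CPM (-1.85 ± 0.21, adjusted p = 0.00342), beside 171 and 97.98 CPM in the inhibitor and 192 and 146 CPM in the knockdown group. Ifi44 fell from 81.4 and 46.4 to 19.4 and 3.83 CPM (-2.75 ± 0.50, adjusted p = 0.0171). Herc6, an ISG15 ligase in mouse, fell from 97.7 and 53.9 to 52.1 and 32.9 CPM (-0.81 ± 0.15, adjusted p = 0.0169). Other members that fell include Ddx58, Eif2ak2, Ifit2, Trim30a, Stat2, Dtx3l, Lgals3bp, Ifih1 and Oas3, and Slfn5 rose by 1.21 ± 0.27, a call lost without any 1 of the control, knockdown and combined libraries. The list's median was -1.06 (-0.77 in set 20 and -1.33 in set 28), beside -0.59 for the inhibitor and 0.21 for the knockdown.

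Sensors of foreign nucleic acids fell in 6 of 17 tested members, where 2.19% of all genes fell. Of these 6, Ddx58, Eif2ak2 and Ifih1 are also on the interferon list. Ddx58, which encodes the RNA sensor RIG-I, fell from 178 and 143.5 to 82.6 and 48.0 CPM (-1.34 ± 0.24, adjusted p = 0.0159). Eif2ak2, the RNA-activated kinase PKR, fell from 138 and 89.9 to 87.7 and 41.2 CPM (-0.88 ± 0.17, adjusted p = 0.0214), with the set 20 combined library just below the set 28 control. Samhd1, a nucleotide triphosphatase, fell from 251 and 224 to 130 and 144 CPM (-0.79 ± 0.16, adjusted p = 0.0216). Leaving out the control library of set 20 or set 28, the count of 14 interferon-stimulated genes was 3 or 2 and without either combined library 1. It was 22 without either knockdown library, 24 or 25 without the inhibitor library of set 20 or set 28, and 0 without the set in the model, where 5 of all genes fell. The count of 6 sensors was 0 or 1 without the control library of set 20 or set 28 and 1 or 0 without the combined library of set 20 or set 28.

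The promoters of the interferon-stimulated genes were searched for 2 copies of GAAA parted by any 2 bases, the core of the element that the complex of STAT2 and IRF9 binds, on both strands and with overlaps counted. It was found in the 250 bases before the start of 4 of 13 matched members that fell (30.8%) and 12 of 29 that did not pass (41.4%), beside 2.7% of all matched genes, and no test was made of these shares. Among all 250 matched genes that fell, 22 held it (8.8%). Trim30a, a TRIM protein of the interferon response (minus strand, chr7:104465194-104465443), and Stat2 (plus strand, chr10:128270248-128270497) were chosen after their values were seen and are shown as members that fell with 1 match each, in capitals. Trim30a went from 159 and 79.2 to 69.4 and 19.09 CPM and Stat2 from 60.2 and 49.9 to 25.9 and 18.1 CPM.
Trim30a: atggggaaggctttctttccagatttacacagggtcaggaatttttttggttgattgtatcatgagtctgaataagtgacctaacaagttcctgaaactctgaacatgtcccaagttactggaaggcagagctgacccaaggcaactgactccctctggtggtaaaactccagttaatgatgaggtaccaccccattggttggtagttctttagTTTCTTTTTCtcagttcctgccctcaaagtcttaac
Stat2: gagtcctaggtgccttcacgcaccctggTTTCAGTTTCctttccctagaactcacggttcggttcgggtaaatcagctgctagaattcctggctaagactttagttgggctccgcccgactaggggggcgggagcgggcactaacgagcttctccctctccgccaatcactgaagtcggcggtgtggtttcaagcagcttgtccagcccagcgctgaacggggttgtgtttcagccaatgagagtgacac

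**Figure D3:**
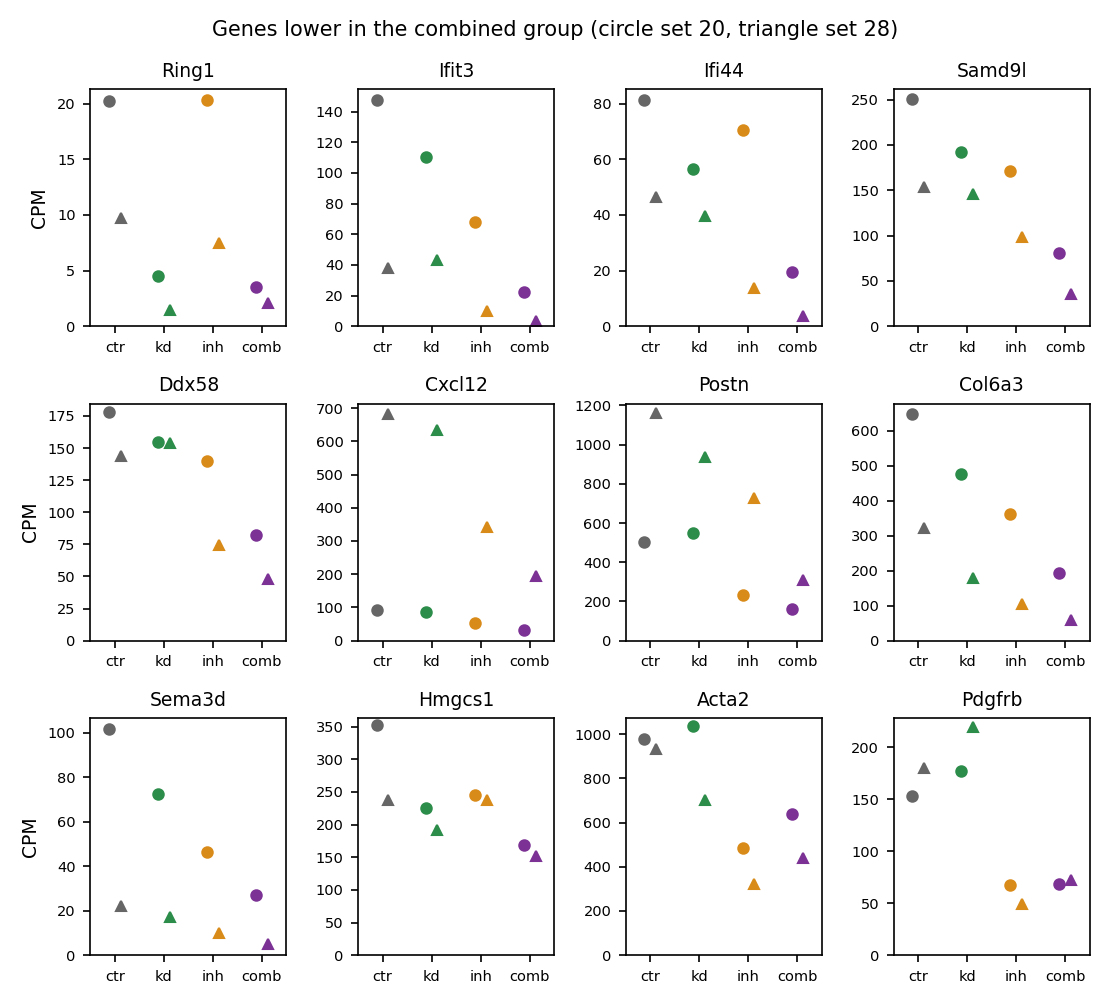
Level in CPM (vertical axis, linear) of 12 genes that fell, by library: control (ctr), knockdown (kd), inhibitor (inh) and combined (comb), with a circle for set 20 and a triangle for set 28. Within each set the combined library lies below the control in all 12 genes, and in Ring1 the knockdown libraries at 4.51 and 1.41 CPM are low as well.

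Extracellular matrix genes, the main product of fibroblasts, rose in 8 of 58 tested members and fell in 8, where 9.57% of all genes rose and 2.19% fell. Those that rose came from low levels. Fbln1, the matrix protein fibulin-1, went from 0.380 and 0.604 to 38.7 and 38.8 CPM (6.33 ± 0.41, adjusted p = 0.000616), and Mmp10, a stromelysin, from 0.380 and 1.61 to 81.5 and 32.3 CPM (6.04 ± 1.01, adjusted p = 0.013), beside 18.2 and 14.9 CPM with DS3201 alone. Dcn, the proteoglycan decorin, went from 0 and 0.268 to 9.66 and 7.66 CPM. Those that fell were abundant. Postn, periostin, fell from 503 and 1160 to 160 and 311 CPM (-1.77 ± 0.23, adjusted p = 0.00568), and Col6a3, a collagen VI chain, from 649 and 323 to 194 and 59.9 CPM (-2.10 ± 0.22, adjusted p = 0.00278). Adamts1 and Col6a1 fell by 1.54 ± 0.22 and 1.37 ± 0.22 log2, and Col12a1, Thbs1, Ogn and Adamts5 were the other 4. The receptor gene Pdgfrb fell from 153 and 180 to 68.2 and 71.9 CPM (-1.25 ± 0.21, adjusted p = 0.0135) while Pdgfra, its relative, rose from 0.190 and 1.95 to 17.1 and 28.4 CPM (4.87 ± 0.65, adjusted p = 0.00646). Acta2, smooth muscle actin, fell from 978 and 932 to 639 and 440 CPM (-0.86 ± 0.18, adjusted p = 0.0287), with still lower values under DS3201 alone (484 and 322 CPM). The Pdgfrb and Acta2 calls were lost without any 1 of the control and combined libraries, and the Pdgfra call without the combined library of set 20. The summed level of the 11 tested fibroblast markers was 21360 and 21720 CPM for the control and 13990 and 15400 CPM for the combined libraries. With the control library of set 20 or set 28 left out, the matrix counts were 1 higher and 3 lower or 4 and 4, without the combined library of set 20 or set 28 they were 1 and 1 or 2 and 2, and without the set in the model 1 and 0. Without the inhibitor library of set 20 or set 28, 21 or 20 matrix genes fell.

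Outside the lists, the deepest falls among genes of at least 1 CPM were in Aoc3 (from 15.8 and 0.604 to 0.377 and 0.192 CPM), an amine oxidase of vessels and fat, and Ptn, the growth factor pleiotrophin (from 83.7 and 112 to 2.57 and 23.2 CPM, -3.44 ± 0.58, adjusted p = 0.0132). Bglap3, an osteocalcin gene, Cldn15, a claudin, Clec2d, a C-type lectin, and Phf11d followed, at -3.43 ± 0.43, -3.10 ± 0.58, -3.01 ± 0.66 and -2.79 ± 0.48 log2. All 6 calls were lost without the combined library of set 20 and without the set in the model, and all but Bglap3 without the control library of set 20. Cldn15 and Phf11d were also lost without the control library of set 28, Clec2d and Phf11d without the combined library of set 28, and Ptn without either inhibitor library. The Ptn level in the inhibitor group lay between the other values, at 17.6 and 59.8 CPM.

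Cholesterol synthesis genes, driven by the sterol-sensing factor SREBP2, fell in 6 of 24 tested members and rose in 0. Over all genes 2.19% fell. Hmgcs1, the synthase of the pathway's entry, fell from 353 and 238 to 168 and 151 CPM (-0.87 ± 0.17, adjusted p = 0.0219), and the 4 single-treatment libraries lay between, from 192 to 245 CPM. Acat2 and Nsdhl fell by 1.05 ± 0.19 and 1.13 ± 0.23 log2, and Msmo1 and Stard4 fell too. The list's median was -0.58, -0.53 for the inhibitor and -0.39 for the knockdown. When the control library of set 20 or set 28 was dropped, the count was 0 or 3, without either combined library 0, without either inhibitor library 14 and without the set in the model 0. Of amino acid transporters and antioxidant genes 5 of 32 rose and 2 fell, where 9.57% of all genes rose. Sod3, extracellular superoxide dismutase, went from 2 control counts to 51.6 and 19.8 CPM, a count ratio of 644 (exact 95% interval 178 to 5325), and Slc7a11, the cystine transporter, rose by 3.82 ± 0.39 log2. The falls, in the glutathione transferase genes Gsta4 and Gstm1, numbered 0 or 1 without the control library of set 20 or set 28, 1 without either knockdown library and 0 without either combined library.

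Of 23 genes of PRC1 itself 3 rose, where 9.57% of all genes did, and Ring1, the shRNA target, fell. DESeq2 gave 6 higher and 2 lower. Cbx2, a chromobox subunit, rose by 0.93 ± 0.20 and Bmi1 by 0.69 ± 0.17 log2. Of 11 PRC2 genes Jarid2, an accessory subunit, rose by 0.77 ± 0.18, and of 8 enzymes that remove H3K27 methylation or H2A ubiquitin none passed. A list of 21 tested readers and cofactors of H3K9 methylation also holds enzymes of DNA methylation, and 2 of these enzymes were its only calls. Dnmt3b, a DNA methyltransferase, rose from 2.66 and 2.01 to 13.7 and 10.5 CPM (2.37 ± 0.25, adjusted p = 0.00289) and Tet1, a methylcytosine dioxygenase, from 0.285 and 0.201 to 10.4 and 3.51 CPM (4.72 ± 0.60, adjusted p = 0.00519). The other 19 were not called. Without the control library of set 20 or set 28, or either combined library, 0 PRC1 genes rose. Without the knockdown library of set 20 or set 28, 0 or 1 did, and without either inhibitor library 10. The Jarid2 call was lost without any 1 of the control, knockdown and combined libraries, and without the control library of set 20 the Dnmt3b and Tet1 calls were lost, the Tet1 call also without the combined library of set 20.

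Genes of growth control moved in part, where 9.57% of all genes rose and 2.19% fell. Of 50 cell-cycle genes 0 were called in either direction (median -0.03), and of 46 ribosomal protein genes 0 (median 0.13). Of 28 p53 targets and CDK inhibitors 6 rose: Pmaip1, a BH3-only death gene (from 9.97 and 27.6 to 73.5 and 153 CPM, 2.69 ± 0.20, adjusted p = 0.000879), Cdkn1a, the CDK inhibitor p21 (from 61.4 and 31.1 to 153 and 149 CPM, 1.81 ± 0.25, adjusted p = 0.00746), Btg2, Trp53inp1, Perp and Gadd45b. Pmaip1 and Cdkn1a were also above control in the knockdown libraries of each set, at 21.8 and 66.8 CPM and at 92.0 and 63.0 CPM. Among 23 immediate early and stress genes the heat shock genes Hspa1a and Hspa1b rose and Egr1 and Fosb fell (-1.73 ± 0.33 and -2.02 ± 0.41). Both heat shock calls were lost without any 1 of the control and combined libraries, and 1 or 0 of the falls was kept without the control library of set 20 or set 28 and 0 without either combined library. Egr1 was also lost without either inhibitor library and Hspa1a without that of set 28. Without the control library of set 20 or set 28 the count of p53 targets was 3 or 3, without the combined library of set 20 or set 28 it was 3 or 1, without either inhibitor library 11 and without the set in the model 0.

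Some markers of other cell types rose, mostly from low levels, as did other genes of low level. Over all tested genes 9.57% rose, and 44% of those under 1 CPM in the control. Neuronal markers rose in 4 of 14 tested members: Uchl1 (from 0.237 and 0.201 to 16.3 and 31.7 CPM), Dcx, Tubb3 and Elavl4. Skeletal muscle markers rose in 6 of 18: Myl1, Myh3, Ttn, Myh8, Myh1 and Myh7, of which Myl1 went from 1 control count to 8.10 and 2.68 CPM. Prom1 and Esrp1 of 10 epithelial, and Flt4 and Tie1 of 10 endothelial markers rose, Flt4, a receptor for lymphatic growth factors, from 0.237 and 0 to 38.0 and 49.98 CPM (8.27 ± 0.57, adjusted p = 0.000757). Some defining markers were at or near 0 and others were expressed in both groups. Myod1 had 0 and 0 counts in the control and 1 and 0 in the combined group, Myog 0 and 0 then 0 and 1, Rbfox3 0 and 1 then 2 and 10, and Epcam 0 and 0 then 7 and 9. The epithelial markers Krt19 (1957 and 1157, then 2412 and 2024 counts) and Grhl2 (491 and 100, then 709 and 135) were among those expressed in both groups. Other tested members, not called, had lower counts: Krt17 (503 and 17, then 199 and 16), Krt8 (73 and 7, then 17 and 4) and Nlgn1 (9 and 37, then 5 and 20). Acta1 (386 and 66, then 152 and 77) and Neb (277 and 10, then 115 and 14) were lower in set 20 only. Of 15 pluripotency genes Klf4, Esrrb, Tfcp2l1, Fbxo15 and Sox2 rose, while Pou5f1 had 1 and 0 counts, then 0 and 1, and Nanog 18 and 13, then 8 and 7. Summed levels in the control and combined groups were 163 and 349 against 246 and 312 CPM for neuronal, 50.6 and 32.0 against 65.5 and 75.4 CPM for muscle, 213 and 105 against 356 and 174 CPM for epithelial and 119 and 69.4 against 207 and 159 CPM for endothelial markers. Without the called members they were 148 and 335 against 167 and 235, 50.2 and 31.5 against 49.0 and 62.0, 213 and 105 against 353 and 171, and 119 and 69.4 against 168 and 108 CPM in the same order. Leaving out the control library of set 20 or set 28, the neuronal count was 2 or 3 and the muscle count 2 or 2, and without the combined library of set 20 or set 28 they were 2 or 2 and 1 or 2. Without the set in the model they were 2 and 0. The epithelial count was 0 or 1 without the control library of set 20 or set 28 and 0 without either combined library, the endothelial count 1 in each of these fits, and the pluripotency count 2 or 3 and 1.

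**Figure D4:**
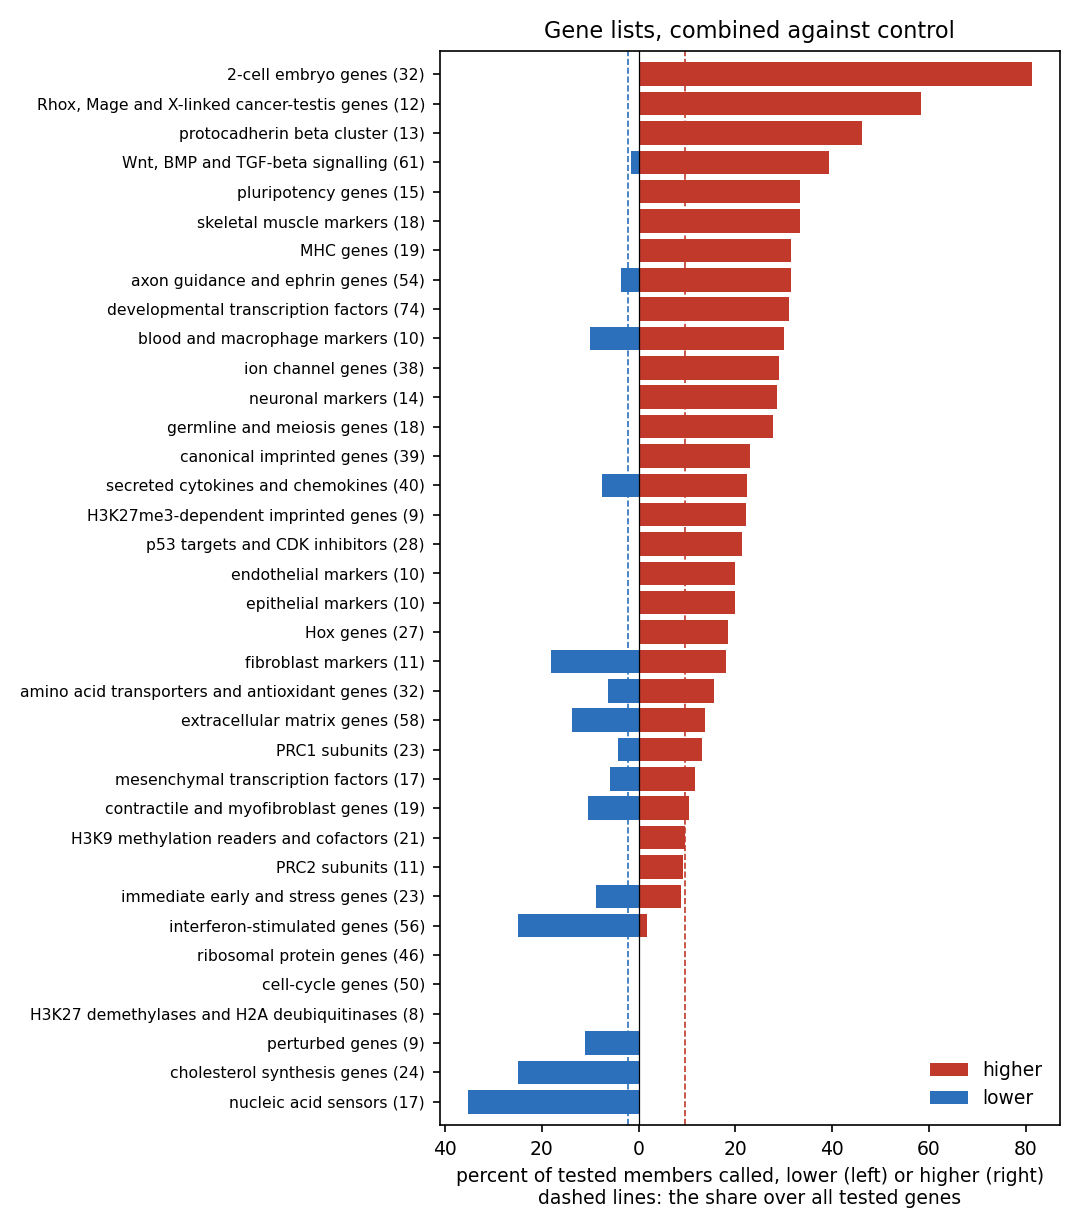
Share of tested members called lower (blue, to the left) or higher (red, to the right) in the combined group for 36 gene lists, in percent, with the number tested in brackets. Dashed lines mark 9.57% higher and 2.19% lower, the shares over all tested genes; 2-cell embryo genes stand at the top and nucleic acid sensors, of which 6 of 17 fell, at the bottom.

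Genes that rose often lay side by side. Of 1370 with a known position, 525 (38.3%) had a higher gene as the next tested gene on either side, against 17.5% of all 14319 positioned genes. The longest run held 11 genes of the Pramef cluster (chr4, 143511343 to 144408467), and another held Zscan4a to Zscan4f (chr7, 10794241 to 11402318). Families of near-identical copies share reads and make up part of such runs. Other runs joined unlike genes or functional clusters: Mgat4c, Nts, Rassf9 and Slc6a15 on chromosome 10, the myosin genes Myh3, Myh1, Myh8 and Myh13 with Gas7 on chromosome 11, Mmp13, Mmp12, Mmp3 and Mmp10 on chromosome 9, and Robo1, Robo2 and Rbm11 on chromosome 16. By chromosome, the share of tested genes that rose was highest on X (84 of 526, 15.97%) and lowest on chromosome 3 (36 of 677, 5.32%). X also had the highest share of genes that fell (23 of 526, 4.37%, where 2.19% of all genes fell). Neighbours and chromosomes were counted from the calls of the same libraries, and no test was made of these shares.

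Repeat subfamilies, counted per subfamily over all genomic copies, were higher in 31 of 894 tested (3.47%) and lower in 0 in edgeR, with 9 lower at an unadjusted p under 0.05 and 0 in DESeq2. The MERVL family, an endogenous retrovirus whose LTRs drive many 2-cell embryo transcripts, led by CPM gained among the called subfamilies. MERVL-int, its internal part, went from 201 and 264 to 976 and 2354 CPM (2.71 ± 0.27, adjusted p = 0.00239), and MT2_Mm, its LTR, from 25.0 and 31.3 to 86.2 and 195 CPM (2.23 ± 0.25, adjusted p = 0.00366). DS3201 alone gave MERVL-int levels of 930 and 2194 CPM and the shRNA alone 169 and 256 CPM. MURVY-int, an ERV1 element, went from 19.7 and 37.2 to 106 and 161 CPM (2.28 ± 0.17, adjusted p = 0.000823), above the 68.5 and 113 CPM with DS3201 and the 36.9 and 72.5 CPM with the shRNA. ETnERV-int rose from 83.4 and 119 to 184 and 336 CPM (1.32 ± 0.19, adjusted p = 0.00785), and B2_Mm1a, a SINE, from 204 and 252 to 402 and 509.9 CPM (0.99 ± 0.18, adjusted p = 0.0158). In all 5 of these the combined libraries stood above both controls.

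The largest fold changes among called subfamilies were in ones of low level. IAPEY5_I-int went from 0.285 and 0.268 to 6.21 and 2.30 CPM (3.85 ± 0.47, adjusted p = 0.00446) and ERVB4_3-I_MM-int from 1.805 and 2.415 to 17.9 and 12.1 CPM (2.83 ± 0.34, adjusted p = 0.00418), both calls lost without the control or the combined library of set 20. RLTR3_Mm had 1 and 0 control counts, then 0.439 and 1.851 CPM, a call lost without any 1 of the control and combined libraries. RLTR1B-int rose from 56.8 and 59.8 to 117 and 110 CPM (0.96 ± 0.16, adjusted p = 0.0125), less than with DS3201 alone (177 and 165 CPM). IAPEz-int, the most abundant repeat and a known target of SETDB1, was at 34340 and 39490 CPM for the control and 42100 and 55030 CPM for the combined libraries, which did not pass (0.38 ± 0.19, adjusted p = 0.257). MMERVK10C-int (0.56 ± 0.24, adjusted p = 0.199), MMVL30-int (0.81 ± 0.36, adjusted p = 0.213) and MuLV-int (0.09 ± 0.22, adjusted p = 0.855) did not pass either. By family, 15 of 271 ERVK, 6 of 85 ERVL, 4 of 98 ERV1, 1 of 87 ERVL-MaLR, 2 of 5 B2 and 0 of 126 L1 subfamilies rose, and 2 of 25 with names starting in IAP. L1 counts were 1.08-fold and 1.11-fold the control within the sets in the combined group, and 1.07-fold and 2.44-fold in the inhibitor group, where the set 28 library stands apart. The median over all 894 subfamilies was 0.26 log2 in the combined and 0.51 in the inhibitor group. With the control library of set 20 or set 28 left out, the count of 31 was 4 or 6, and without the combined library of set 20 or set 28 it was 3 or 9. It was 104 or 90 without the inhibitor library of set 20 or set 28, where 9 or 11 fell, and 1 without the set in the model. Reads from near-identical copies are assigned by a rule not given in the sources used here, so a level says nothing of single copies.

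**Figure D5:**
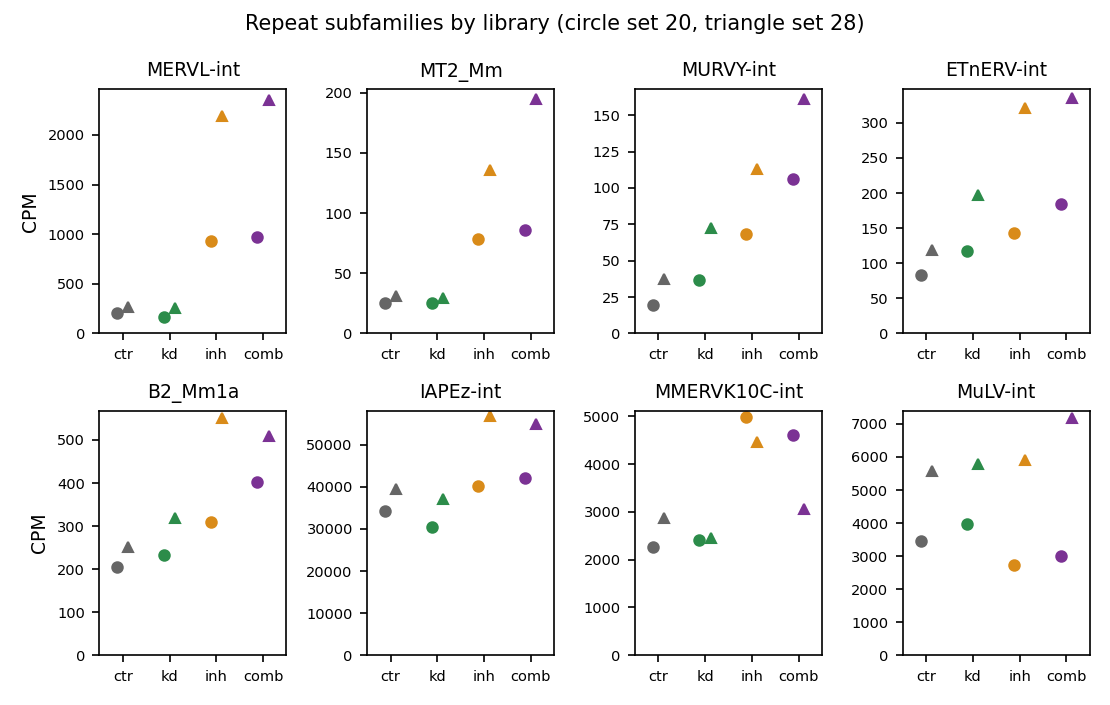
Level in CPM (vertical axis, linear) of 8 repeat subfamilies by library: control (ctr), knockdown (kd), inhibitor (inh) and combined (comb), with a circle for set 20 and a triangle for set 28. MERVL-int, MT2_Mm, MURVY-int, ETnERV-int and B2_Mm1a rose and IAPEz-int, MMERVK10C-int and MuLV-int did not pass; MERVL-int reaches 976 and 2354 CPM in the combined group.

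The combined group was then tested against each single treatment in the same model. Against the inhibitor alone, a test of the added Ring1a shRNA, 0 genes and 0 repeat subfamilies passed. At an unadjusted p under 0.05, 516 genes were higher and 585 lower, and 2 repeat subfamilies higher and 33 lower. DESeq2 called 35 genes and 0 repeats, and edgeR on only the 4 libraries compared called 20 genes and 0 repeats. Ring1 itself missed the threshold (-2.22 ± 0.30, adjusted p = 0.594), so a difference of that size at that level was not detectable over all genes here. Without the inhibitor library of set 20, which leaves the one that stands apart, 4043 genes and 201 repeats passed, and without the inhibitor library of set 28 0 did. The genes of smallest p, none passing, on the lower side besides Ring1 were Xpo6, a nuclear exporter of actin (34.4 and 32.9 CPM combined, 74.1 and 77.6 inhibitor, -1.17 ± 0.17), Mon2, an endosomal trafficking factor (59.2 and 54.7 against 111 and 97.5 CPM, -0.87 ± 0.14), and Map2k4, a kinase of the JNK pathway (50.5 and 54.7 against 88.0 and 108 CPM, -0.89 ± 0.14). All 3 were near the combined level in the knockdown libraries as well, for Xpo6 at 35.0 and 32.2 CPM, and near the inhibitor level in the controls, at 68.9 and 89.3 CPM. On the higher side these were Mdga1 (2.06 ± 0.40), Gna11 (1.03 ± 0.20), Ak4 (1.77 ± 0.36) and Dusp3 (0.81 ± 0.17), each higher in both sets. Samd9l (-1.25 ± 0.20), Ifit3 (-1.61 ± 0.37) and Gata2 (0.96 ± 0.20) also kept 1 direction in both sets, each at adjusted p = 0.594.

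Against the Ring1a shRNA alone, a test of DS3201 in knockdown cells, 913 genes were higher (6.34%) and 126 lower (0.875%), and 12 repeat subfamilies higher (1.34%). BB287469 (7.56 ± 0.24, adjusted p = 0.000116), Six2 (6.16 ± 0.43, adjusted p = 0.000816), Peg3 (6.33 ± 0.47, adjusted p = 0.00108) and MERVL-int (2.87 ± 0.27, adjusted p = 0.0023) rose. Samd9l (-1.64 ± 0.21, adjusted p = 0.00654), Ifit3 (-3.002 ± 0.38, adjusted p = 0.00654) and Postn (-1.69 ± 0.23, adjusted p = 0.00852) fell. Xpo6 (0.003 ± 0.17) and Map2k4 (0.02 ± 0.14) did not pass. Gpc1 (0.79 ± 0.33, adjusted p = 0.25) and Phlda2 (0.80 ± 0.36, adjusted p = 0.291) did not pass either. Without the knockdown library of set 20 or set 28 the counts were 275 higher and 38 lower or 660 and 33. Without the combined library of set 20 or set 28 they were 115 and 4 or 143 and 2. Without the control library of set 20, 71 genes were lower, without the inhibitor library of set 20 or set 28 794 or 841, and without the set in the model 92 were higher and 0 lower. The repeat count was 7 without the control library of set 20 and 51 or 44 without the inhibitor library of set 20 or set 28. It was 2 or 6 without the knockdown library and 2 or 1 without the combined library of set 20 or set 28, and 0 without the set in the model.

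For comparison, each single treatment was set against the same 2 control libraries. The inhibitor alone gave 982 genes higher (6.82%) and 108 lower (0.75%) with 30 repeat subfamilies higher (3.36%), and the shRNA alone 0 and 0, with 382 higher and 182 lower at an unadjusted p under 0.05. These comparisons share the control libraries with the combined one, so their sizes are given side by side and no overlap is drawn. Whether the combined change differs from the sum of the single changes was tested as an interaction, and 0 genes and 0 repeats passed in edgeR and in DESeq2 (29 genes higher and 103 lower and 12 repeats lower at an unadjusted p under 0.05). Without the inhibitor library of set 20, 1901 genes and 134 repeats passed. The genes of smallest p on the lower side were Ogfrl1, Cp, Usp17ld and Samd9l (adjusted p = 0.99 in each). Cp, the ferroxidase ceruloplasmin, had control levels of 10.8 and 4.09 CPM, knockdown levels of 18.7 and 8.21 CPM, inhibitor levels of 72.7 and 49.9 CPM and combined levels of 53.9 and 31.2 CPM. Its combined level thus lay below the inhibitor level in both sets. Samd9l, lowest in the combined group, had an interaction of -1.04 ± 0.28 log2. On the higher side these were Vmn2r3, Pusl1, Krt80 and Vwf.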

How the data were processed

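RNA counts from 8 libraries of 6KO iMEFs (4 groups of 2, polyA RNA, KAPA mRNA Hyper Prep kit) were used; 8 further count columns with no matching sample label were not used. Per the submitters' processing notes the authors used Trim Galore and TopHat2 with build mm10; for versions, the counting tool, its treatment of multiply matching reads and its strand setting, the sources used here state nothing. The authors deposited raw counts for 24062 genes and 1153 repeat subfamilies, with no normalization. Group membership came from the labels and column names; the labels' batch 1 and 2 follow the replicate number in every group, and which number is set 20 or set 28 is not given.

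Counts were fitted with edgeR 4.0.16 (R 4.3.3, limma 3.58.1): TMM scaling, filtering by group, and the quasi-likelihood test with group and set over all 8 libraries (3 residual degrees of freedom), with Benjamini-Hochberg adjustment over all 15287 entries and a threshold of 0.05. DESeq2 1.42.0 was an alternative. Set deviations of the groups correlated at 0.559 to 0.897, and set numbers are shared by the column names of all groups. Standard errors are the log2 fold change over the root of F. Folds over 0 control counts use 3 counts over the group as a floor. Control counts of 1 to 3 are mostly given as a ratio with an exact interval. Floors and 95% intervals cover counting error only. Library totals of 12738585 to 23688253 set the precision. Positions and promoters came from RefSeq tables (GRCm38.p6). The fit was also run on simulated counts with no difference between sets and a common spread for all entries. Changes were placed only in well-counted entries, so that run does not cover low-level genes or the set block.

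Named genes were the perturbed genes, the 8 highest and lowest fold changes and CPM gains and losses among called genes (unnamed gene models left out), up to 4 members per list and direction by smallest p, the corresponding repeats with a set of known subfamilies, and the 4 genes of smallest p per direction where none passed; exceptions are stated. Members, lists and tests were chosen with earlier results of these data known. Alternatives were the scaling, filters, libraries fitted, the set block and leaving out each library.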

Additional observations from a re-analysis of the deposited data

How the results depend on the processing

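The set as a replicate block decided most calls of the combined group against the control: without it 217 genes were higher, 5 lower and 1 repeat subfamily higher, in place of 1377, 315 and 31. Against the knockdown it gave 92 genes higher, 0 lower and 0 repeats, in place of 913, 126 and 12; the pairing of sets is described with the methods. Fitting only the libraries compared gave 549 genes lower and 2 repeats lower against the control, 20 genes changed against the inhibitor, and 304 genes lower and 23 repeats higher against the knockdown. DESeq2 gave 588 genes lower and 47 repeats higher against the control, 35 genes against the inhibitor, and 324 genes lower and 23 repeats higher against the knockdown. Genes called higher made up 81.38% of the calls against the control, 97.75% without the block, 68.34% with only the libraries compared and 73.13% in DESeq2. Other scalings and filters kept each count within 1.5 times. The interaction uses all 4 groups, so fitting only compared libraries is the same fit.

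Leaving out 1 library at a time gave 234 to 2014 genes higher, 12 to 1708 lower, 3 to 104 repeats higher and 0 to 11 lower against the control. Against the inhibitor it gave 0 to 4043 genes and 0 to 201 repeats, against the knockdown 115 to 1207 genes higher, 2 to 841 lower and 1 to 51 repeats higher, and for the interaction 0 to 1901 genes and 0 to 134 repeats. A group left with 1 library is assumed to vary like the others. The cause of these shifts was not tested. No named result changed sign while called.

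With 2 libraries a group and totals from 12738585 counts, changes under 3 counts, 0.127 to 0.236 CPM, are not resolved, and single members of near-identical families and repeat copies are not either.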
